A study of Mus musculus with 4 samples.

Results

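The starting difference between an embryonic stem cell line labelled as overexpressing Hey2 and one labelled as overexpressing Hey1 was measured as the uninduced Hey2 array minus the uninduced Hey1 array, on the log2 scale and with 1 array a side. All probe sets with exactly 1 gene symbol were taken, 34958 of the 45101 on the array. They named 18194 genes, each represented by its probe set with the highest mean over all 4 arrays. Of these, 12098 genes were compared, because the highest of their 4 values reached 6.05, the median of all deposited values, and 6096 stayed below it.

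Both groups were murine embryonic stem cells labelled CM7/1, and the labels give Hey1 overexpression for one and Hey2 overexpression for the other, with the induction state "control". Each line was also profiled after 1000 ng/ml doxycycline for 48 h, the other pair of arrays in the series. The series title names the regulation of Hey target genes as its subject. Whether each line is a single clone, how it was derived and how long it was passaged was not given in the sources used here, so line, passage and culture cannot be told apart in any value below. The design text gives no replicates, and a value set against a single other array therefore has no replicate check and no p-value.

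Hey1 and Hey2 are basic helix-loop-helix repressors that are switched on by Notch signalling and are best known from heart and vessel development. Several of the genes that separated the lines belong to groups whose control is well described. Imprinted genes such as Grb10 are read mainly from 1 parental copy, and genes for contractile and cytoskeletal proteins are activated by serum response factor, which binds a short element called the CArG box. Embryonic stem cells in serum culture also hold small numbers of cells that express genes of the early cleavage-stage embryo.

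The probe sets of Hey1 and Hey2 did not mark the line labelled for each factor. The Hey1 probe set read 6.73 in the uninduced Hey1 array and 6.72 in the uninduced Hey2 array, against 6.51 and 6.25 in the treated arrays of the same lines. The Hey2 probe set read 4.84 and 4.25 in the uninduced arrays and 4.51 and 4.34 in the treated arrays, all below the level filter. Nothing in the labels says whether either probe set detects the introduced transcript, so the treated arrays are named here by their label alone. Both uninduced arrays carried the embryonic stem cell program, with 10 of 10 defining markers above 6.05 and the lowest of them at 10.98 in the Hey1 array and 11.22 in the Hey2 array. Of 11 fibroblast markers, 1 reached 6.05 in each uninduced array, Thy1 in the Hey1 line and Col1a2 in the Hey2 line, and the 11 values ranged from 4.33 to 7.13 and from 4.42 to 6.27. The summed linear signal of those fibroblast markers was 514 and 469, beside 101303 and 97150 for the stem cell markers. Once sorted, the values of the 4 arrays matched to within 0.0024, so a common shift of every gene would be invisible here. Signal toward the 3′ end of the transferrin receptor control exceeded that toward its 5′ end by 0.95 in the uninduced Hey1 array and 0.67 in the uninduced Hey2 array, on the log2 scale. The other mouse controls lay closer together in these arrays. They gave 0.04 and 0.01 for Gapdh, 0.48 and 0.39 for beta-actin, 1.38 and 1.33 for pyruvate carboxylase, and -0.62 and -0.57 for 18S RNA. The part of RNA quality in the differences was not tested.

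Across the 12098 genes, 100 (0.827%) were higher by 2-fold or more in the uninduced Hey2 line and 137 (1.13%) were lower by that much. At 1.5-fold the counts were 544 higher (4.5%) and 535 lower (4.42%), and the median difference was 0.03. Of all genes compared, 6496 lay above 0 and 5592 below, which stand as background for the gene lists below. Large differences were more often toward lower values in the Hey2 line, with 18 genes lower by 4-fold or more and 7 higher. In 52 of the 137 lower genes the Hey2 value lay below 6.05, and in 18 of the 100 higher genes the Hey1 value did, so these differences involve signals near the dim end of the array. In such bulk samples, fewer cells of a type and less RNA per cell cannot be told apart. The scaled median absolute deviation of the difference across genes was 0.29 for the uninduced pair and 0.25 for the treated pair, against 0.16 between the arrays of the Hey1 line and 0.22 between those of the Hey2 line. The lines thus lay farther apart than the untreated and treated array of either line.

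The doxycycline-treated arrays of the same lines share no array with the uninduced pair. The treated cells also differed in the factor they were to express, so their difference is not a repeat of the baseline measure. In that pair, 94 genes (0.777%) were higher in the Hey2 line by 2-fold or more and 101 (0.835%) were lower. Of the 100 genes higher in the uninduced Hey2 line, 59 were 2-fold higher in the treated Hey2 line too, 62.8% of the treated list. Of the 137 lower genes, 58 were 2-fold lower there too, 42.3% of the uninduced list and 57.4% of the treated list. The sign was the same for 96 of the 100, where 47.2% of all genes were higher in the treated Hey2 line, and for 132 of the 137, where 52.7% were lower. Both Hey2 arrays lay above both Hey1 arrays for 93 of the 100 (27.4% of all genes), and below them for 123 of the 137 (26.6% of all genes), counts that the choice of genes by their uninduced difference fixes in part. The higher genes kept nearly their size, with a median of 1.19 in the uninduced and 1.06 in the treated pair, while the median of the lower genes was -1.22 and -0.82. Across the 12098 genes, which are not independent replicates, Pearson's r between the pairs was 0.67 and Spearman's rho 0.59, with the 2 lines shared by both pairs.

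**Figure D1:**
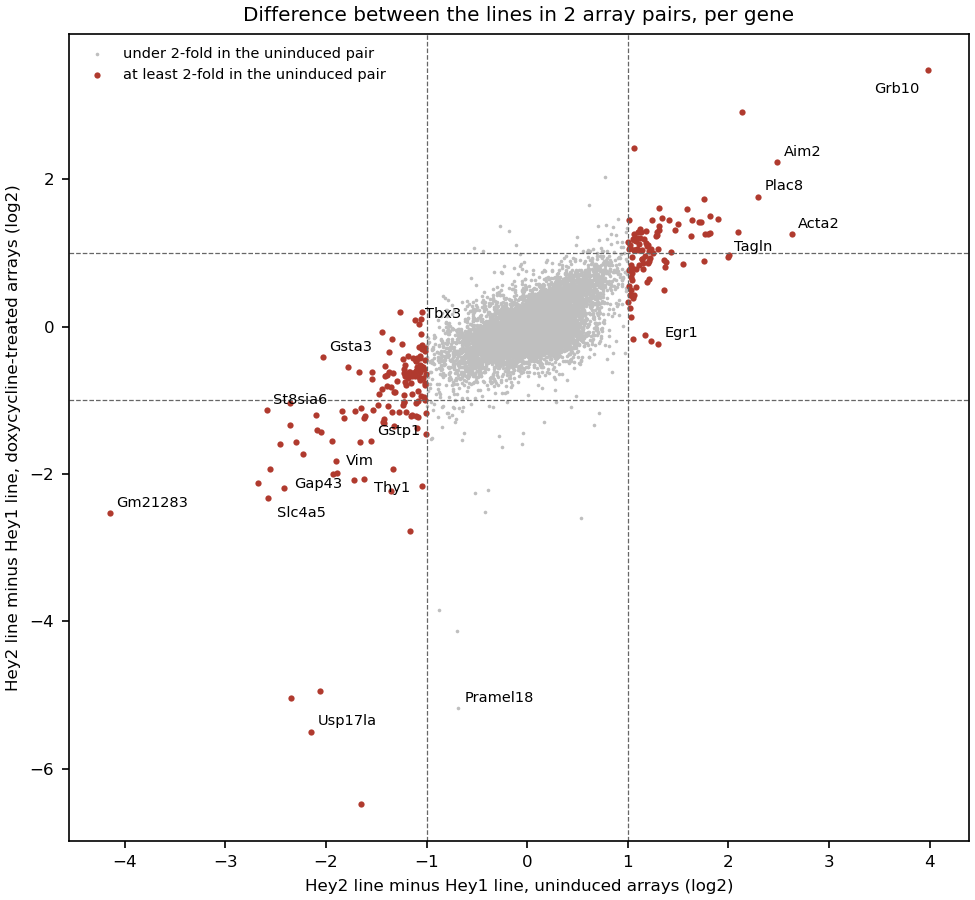
Each point is 1 of the 12098 genes compared, with the Hey2 minus Hey1 difference in the uninduced arrays on the x axis and in the doxycycline-treated arrays on the y axis, both log2. Dashed lines mark 2-fold, and red points are the 100 higher and 137 lower genes of the uninduced pair. Grb10 stands alone at the upper right, while Usp17la and its like lie at the bottom left, where the treated Hey1 array is high.

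A line test was made with limma on all 4 arrays, which takes the 2 arrays of a line as repeats and doxycycline as a covariate. It called 65 genes higher (0.537%) and 46 lower (0.38%) in the Hey2 line at a Benjamini-Hochberg adjusted p of 0.05, and the adjusted p of the called genes lay between 0.0439 and 0.0482. The calls held 53 of the 100 higher and 37 of the 137 lower genes of the uninduced pair, an overlap partly built in because the test uses the uninduced arrays too. The labels do not speak of separate cultures, and the p-values cover these 4 samples alone. The spread of a gene was the change of its line difference between the uninduced and treated pairs, which may be technical. The lines were labelled for different factors, so this is not a spread between repeat samples of a line. limma also drew it toward a value shared across genes, and the lowest SE of the called genes was 0.0800 in each direction. The test had 1 residual degree of freedom, and its calls turned on the fit. With a level-dependent and robust prior variance it called 1543 higher and 1390 lower, without the treated Hey1 array or without the uninduced Hey2 array it called 0 and 0, without the uninduced Hey1 array 0 and 5, and without the treated Hey2 array 32 and 39.

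Grb10, an adaptor that binds the insulin and insulin-like growth factor receptors, stood higher in the Hey2 line by more than any other gene compared. It read 8.40 in the uninduced Hey1 array and 12.39 in the uninduced Hey2 array, a 15.8-fold difference, and 9.18 and 12.65 in the treated arrays. Its level in the Hey2 line was among the brighter signals on the array. The other 2 Grb10 probe sets also read higher in the Hey2 line, by 1.10 and 1.85 in the uninduced pair and by 1.76 and 2.20 in the treated pair. In the limma line test the difference was 3.73 ± 0.15 (SE, 2 arrays a line, adjusted p = 0.0439). LOC102631979, a long non-coding RNA annotated within the span of Grb10, read 5.89 and 8.03 in the uninduced arrays and 5.64 and 8.55 in the treated arrays, and because the 2 overlap the source of its signal cannot be told apart.

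Ddc, the aromatic amino acid decarboxylase gene next to Grb10 and imprinted with it in some tissues, ran the other way. It read 11.30 in the uninduced Hey1 array and 10.06 in the uninduced Hey2 array, and 11.23 and 10.16 in the treated arrays, so the lines did not overlap. The line difference in limma was -1.15 ± 0.09 (SE, adjusted p = 0.0442). 1700042O10Rik, a non-coding RNA annotated within the span of Ddc, was lower by 1.84 in the uninduced Hey2 line and by 1.14 in the treated one. The 17 other compared genes around this locus, from Ramp3 to Rab1a, differed by between -0.58 and 0.70 in the uninduced pair. Past 2-fold at this locus were thus Ddc, Grb10 and the transcripts within them.

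**Figure D2:**
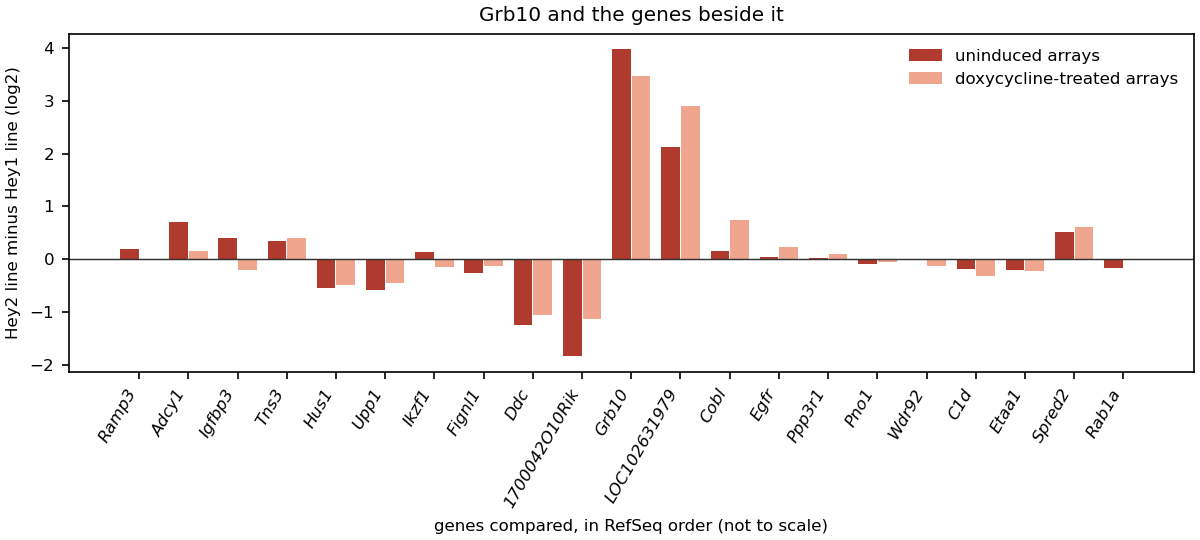
Bars give the Hey2 minus Hey1 difference (log2) of Grb10 and the compared genes on either side, in RefSeq order and not to scale, in the uninduced arrays (dark) and the doxycycline-treated arrays (light), 1 array a side. Grb10 and LOC102631979 stand above 2, Ddc and 1700042O10Rik lie below -1, and the uninduced bars of the others stay between -0.58 and 0.70.

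Of 35 imprinted genes compared, Grb10 was the 1 past 2-fold higher in the uninduced Hey2 line and 2 were past 2-fold lower, and the median of the list was 0.08. Besides Grb10 and Ddc, the limma line test called Plagl1, a zinc finger transcription factor, which read 10.22 and 8.60 in the uninduced and 10.32 and 9.08 in the treated arrays. A second Plagl1 probe set above the filter differed by -0.25 in the uninduced pair, so the probe sets of this gene disagreed in size. Nnat, a membrane proteolipid gene of the brain, differed by -0.77 and Sfmbt2, a Polycomb-related gene, by 0.71. The non-coding RNA Meg3 was higher by 0.61 in both pairs, while its imprinted neighbour Dlk1 differed by 0.25 and 0.49. The placental growth regulator Phlda2 differed by 0.66 and the growth factor gene Igf2 by 0.32. After Grb10, the largest difference in the list was that of Plagl1.

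Genes for smooth muscle proteins and other targets of serum response factor tended to read higher in the uninduced Hey2 line. Of 29 compared, 5 were past 2-fold higher and 0 past 2-fold lower, 26 lay above 0 where 53.7% of all genes did, and the median was 0.28. Acta2, smooth muscle alpha-actin, read 7.18 in the uninduced Hey1 array and 9.81 in the uninduced Hey2 array, and 7.05 and 8.30 in the treated arrays. Tagln, the actin-binding protein transgelin, read 7.22 and 9.22 in the uninduced and 7.40 and 8.34 in the treated arrays. For both genes the lines did not overlap, and the uninduced Hey2 array was the high one of the 4. Myl9, a regulatory light chain of myosin, read 6.75 and 8.84 in the uninduced and 6.46 and 7.73 in the treated arrays. The tropomyosin gene Tpm1 read 9.93 and 10.96 in the uninduced and 9.70 and 10.19 in the treated arrays. Smaller differences of the same sign were found for the calponin gene Cnn2 (0.91 and 0.75 in the uninduced and treated pair) and the non-muscle myosin heavy chain gene Myh9 (0.86 and 0.65).

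Other members of the group did not separate the lines in the treated arrays. Egr1, an immediate early gene, read 8.13 and 9.43 in the uninduced arrays but 9.02 and 8.78 in the treated arrays, so the lines overlapped. The adhesion gene Lpp differed by 0.65 and -0.24, and Fos, another immediate early gene, by 0.18 and -0.66. The smooth muscle gene Cnn1 ran against the group in the uninduced pair, at -0.30. Srf itself differed by 0.16, and the genes of its co-activators Mrtfa and Mrtfb by 0.22 and 0.14. In the treated pair the median of the 29 was 0.14. The limma line test called 0 of them at the adjusted p of 0.05, with adjusted p = 0.0748 for Acta2, 0.0775 for Tagln and 0.0553 for Myl9. At an unadjusted p of 0.05, 11 of the 29 were higher and 0 lower, where 15.2% of all genes compared were higher and 13.1% lower. The limma fit with a level-dependent prior called 9 higher and 0 lower, where it called 12.8% of all genes higher and 11.5% lower.

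**Figure D3:**
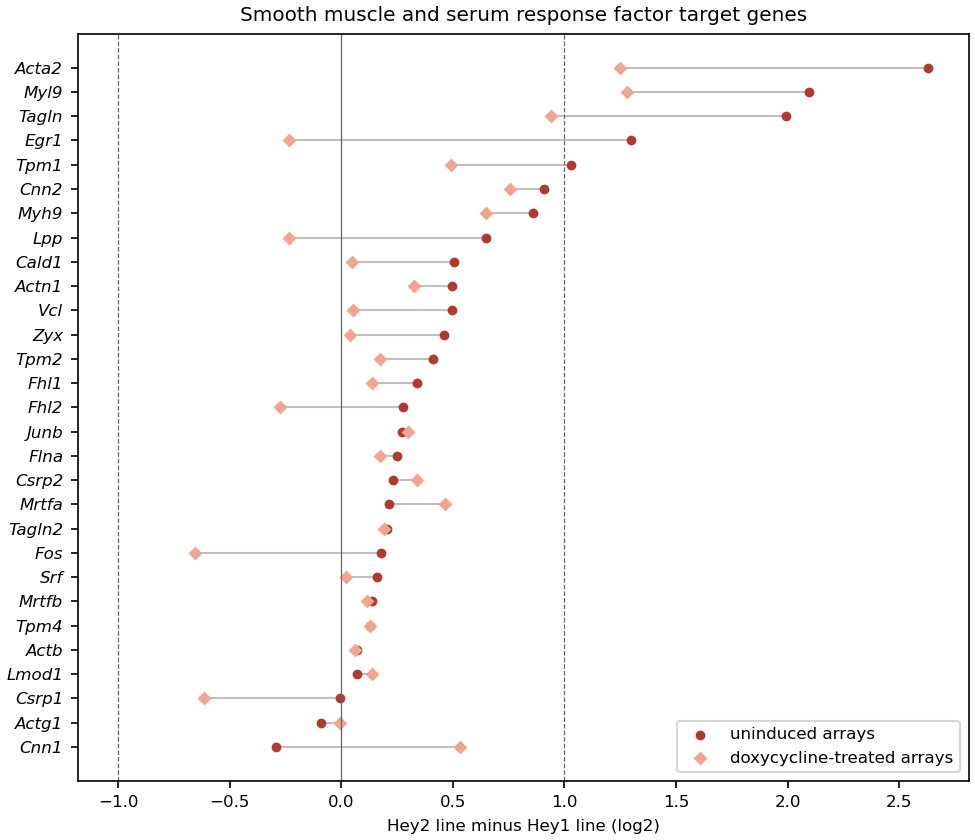
The 29 compared genes of the smooth muscle and serum response factor list, with the Hey2 minus Hey1 difference (log2) on the x axis for the uninduced arrays (circles) and the doxycycline-treated arrays (diamonds), 1 array a side. Acta2, Myl9, Tagln, Egr1 and Tpm1 lie past the 2-fold line in the uninduced arrays, and for 23 genes the treated difference is above 0.

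Promoter sequence was examined for this group because serum response factor has a known binding element. The promoters of 3 group members past 2-fold higher are given as the 250 bases before the annotated start, from RefSeq on GRCm38.p6. Capitals mark exact matches to the searched form of the CArG box. The box was searched as a pair of C bases, 6 bases that are each A or T, and a pair of G bases, which reads alike on both strands, in the 250 bases before and 50 bases after the start. Myl9 lies at chr2:156775214-156775463 (plus strand), Tpm1 at chr9:67049214-67049463 (minus strand) and Acta2 at chr19:34255374-34255623 (minus strand).
Myl9: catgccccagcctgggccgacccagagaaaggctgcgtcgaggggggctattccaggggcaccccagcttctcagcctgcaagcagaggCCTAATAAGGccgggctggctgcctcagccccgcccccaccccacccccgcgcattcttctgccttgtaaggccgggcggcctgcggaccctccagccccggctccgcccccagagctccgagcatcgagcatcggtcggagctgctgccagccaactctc
Tpm1: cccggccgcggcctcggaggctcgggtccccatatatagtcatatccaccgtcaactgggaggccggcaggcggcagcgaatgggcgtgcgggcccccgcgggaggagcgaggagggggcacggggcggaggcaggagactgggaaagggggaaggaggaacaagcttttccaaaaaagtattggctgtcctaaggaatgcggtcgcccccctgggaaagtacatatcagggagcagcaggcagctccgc
Acta2: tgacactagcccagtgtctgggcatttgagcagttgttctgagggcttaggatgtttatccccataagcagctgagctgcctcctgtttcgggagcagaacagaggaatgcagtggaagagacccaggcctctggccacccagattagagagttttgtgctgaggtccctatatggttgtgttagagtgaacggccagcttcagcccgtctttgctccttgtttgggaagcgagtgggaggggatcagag
The Myl9 box begins 161 bases before the start, and the searched windows of Tpm1 and Acta2 hold no exact match. Stretches that differ from the searched form by 1 base were not counted or marked, and the printed promoters of all 3 genes hold such stretches. The lack of a match is therefore not the lack of a CArG element. A box was found for 7 of the 25 group members with a promoter sequence (28%). It was found for 150 of 9759 compared genes (1.54%) and 488 of all 27025 genes in the promoter table (1.81%). The group was listed as targets of serum response factor, so an excess of boxes was built in. It says nothing about the difference between the lines. The 7 were Myl9, Cnn2, Vcl, Fhl1, Fhl2, Srf and Actg1, whose uninduced differences ran from 2.10 for Myl9 to -0.09 for Actg1, so members with a box were found at both ends of the group. Among all genes at least 2-fold higher, 5 of 80 (6.25%) held the box, namely Myl9, Rnf128, Tanc1, Tiam1 and Ergic1, and among those at least 2-fold lower it was 1 of 108 (0.926%), Gstp1. These matches describe letters and not binding.

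Several other genes with large differences were higher in both Hey2 arrays. Aim2, a sensor of cytosolic DNA, read 5.51 and 7.99 in the uninduced and 5.67 and 7.90 in the treated arrays, below the filter in the Hey1 line and clear of it in the Hey2 line. Plac8, a gene first described in placenta, read 7.90 and 10.20 in the uninduced and 7.78 and 9.55 in the treated arrays. Nckap1l, a subunit of the actin-regulating WAVE complex in blood cells, read 6.70 and 8.46 in the uninduced and 6.95 and 8.68 in the treated arrays. Rnf157, which encodes a ubiquitin ligase, read 5.67 and 7.26 in the uninduced and 5.67 and 7.27 in the treated arrays, but its 3 other probe sets above the filter differed by 0.93, 0.32 and 0.86 in the uninduced pair. These 4 genes were called by the limma line test, with mean differences between 1.59 for Rnf157 and 2.36 for Aim2. Rnf128, another ubiquitin ligase gene, was 7.04 and 9.04 in the uninduced arrays, but doxycycline treatment went with a higher value in the Hey1 line (8.14) and little shift in the Hey2 line (9.12).

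Krt17, Msln and Vwf were also higher in both Hey2 arrays. Krt17, a keratin of stratified epithelia, read 7.39 and 9.19 in the uninduced and 7.13 and 8.39 in the treated arrays. Msln, the mesothelial surface protein mesothelin, read 6.68 and 8.45 in the uninduced and 6.58 and 7.84 in the treated arrays. Vwf, von Willebrand factor, a clotting protein of endothelium, read 5.50 and 7.32 in the uninduced and 5.07 and 6.34 in the treated arrays. The lines did not overlap for any of these 3 genes, and in each the difference was smaller in the treated pair. The homeobox gene Nkx6-3 differed by 1.82, the RNA-binding protein gene Rbm47 by 1.47 and the glycolipid synthesis gene A4galt by 1.43 in the uninduced pair. Kbtbd11 and Serpinb6c differed by 1.71 and 1.72, from levels of 9.77 and 9.26 in the Hey1 line, so these differences did not start near background. The other 2 Kbtbd11 probe sets above the filter differed by 0.19 and 1.20 in the uninduced and by -0.08 and 0.68 in the treated pair.

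**Figure D4:**
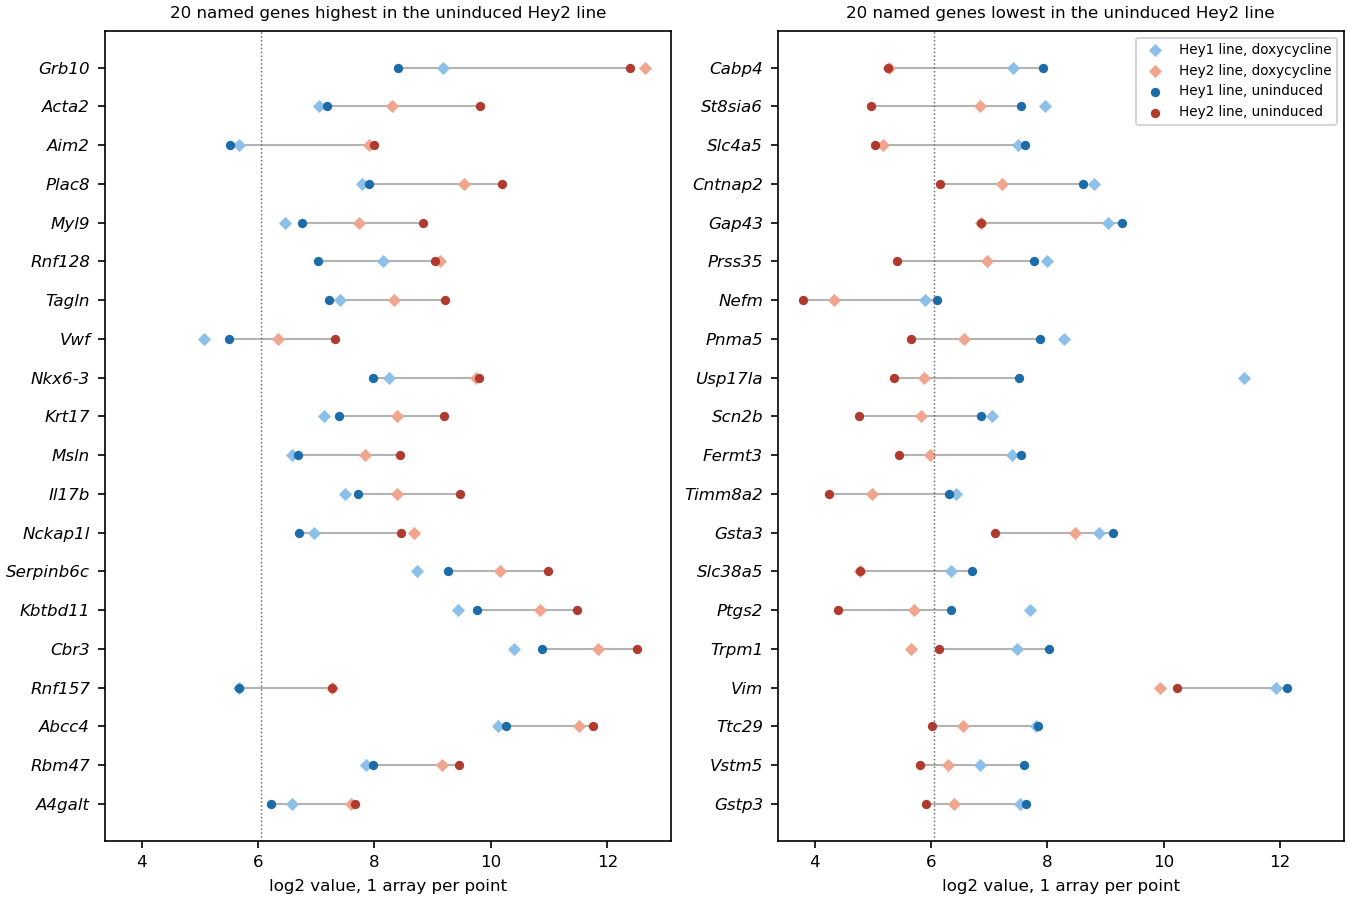
Log2 values of the 20 named genes with the largest difference in each direction, 1 point per array, with circles for uninduced and diamonds for doxycycline-treated arrays, blue for the Hey1 line and red for the Hey2 line. Grey lines join the uninduced arrays and the dotted line marks the level filter of 6.05. Predicted genes and clone names are left out, so LOC102631979 and Gm21283 are not drawn.

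Among genes lower in the Hey2 line, the lowest compared gene was the predicted gene Gm21283, singled out here after its values were seen. It read 8.25 and 4.10 in the uninduced and 7.26 and 4.73 in the treated arrays, with both Hey2 values below the filter. The calcium-binding protein gene Cabp4, known from photoreceptor synapses, read 7.93 and 5.26 in the uninduced and 7.41 and 5.28 in the treated arrays. Slc4a5, a sodium bicarbonate cotransporter gene, read 7.62 and 5.05 in the uninduced and 7.49 and 5.17 in the treated arrays. For these 3 genes the Hey2 values sat below 6.05, so the fold is limited by the dim end of the array. Trpm1, a cation channel gene, read 8.04 and 6.14 in the uninduced and 7.48 and 5.65 in the treated arrays. Ptgs2, the inducible cyclooxygenase gene, read 6.34 and 4.41 in the uninduced and 7.71 and 5.71 in the treated arrays, higher after doxycycline in both lines with the gap between the lines kept. The limma line test called Cabp4, Slc4a5, Trpm1 and Ptgs2.

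Vimentin, N-cadherin and Thy1 were lower in the Hey2 line. Vim, the intermediate filament of mesenchymal and many cultured cells, read 12.11 and 10.22 in the uninduced and 11.92 and 9.94 in the treated arrays. Its 3 probe sets differed by -1.89, -2.06 and -2.11 in the uninduced pair, and the line difference in limma was -1.94 ± 0.08 (SE, adjusted p = 0.0439). Cdh2, N-cadherin, read 8.25 and 6.91 in the uninduced and 7.99 and 6.84 in the treated arrays and was called by the limma line test. Thy1, a surface protein of fibroblasts and neurons, read 7.13 and 5.51 in the uninduced and 7.80 and 5.73 in the treated arrays. It was called too, while the other 10 fibroblast markers lay at or below 6.27 in both uninduced arrays, and their part in the Vim and Thy1 differences was not tested. The wider fibroblast and matrix list did not follow, with 9 of 15 compared genes above 0, 2 past 2-fold lower (Vim and Thy1), 0 past 2-fold higher and a median of 0.06. Its highest member was Ccn2, a matrix protein gene, at 0.70, and the collagen gene Col1a2 differed by 0.23.

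The epithelial side of the adhesion list ran the other way by smaller amounts. Of 28 epithelial and adhesion genes compared, 22 lay above 0, 6 were past 1.5-fold higher and 0 past 2-fold higher, and the median was 0.26. The splicing regulator Esrp1 differed by 0.95, the tight junction genes Cldn4, Ocln and Cldn6 by 0.80, 0.70 and 0.68, and Cdh1, E-cadherin, by 0.55. Zeb1, a repressor of epithelial genes, differed by -0.64. In the treated pair the median of the list was 0.19, and Cdh1 differed by 0.20. In this list the limma line test called Vim and Cdh2 lower and 0 genes higher, with 15 higher and 3 lower at an unadjusted p of 0.05 (15.2% and 13.1% of all genes) and 10 higher and 3 lower with the level-dependent prior (12.8% and 11.5%).

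A few neural genes read much lower in the Hey2 line, while the median of the neural list lay near 0. Of 18 neuroectoderm and neuronal genes compared, 4 were past 2-fold lower, 0 past 2-fold higher, and the median was -0.03. Gap43, a growth cone protein, read 9.28 and 6.86 in the uninduced and 9.04 and 6.86 in the treated arrays. Cntnap2, a neuronal adhesion protein of the neurexin family, read 8.60 and 6.15 in the uninduced and 8.80 and 7.21 in the treated arrays. The neurofilament gene Nefm read 6.11 and 3.81 in the uninduced and 5.89 and 4.33 in the treated arrays, with the uninduced Hey1 array as the one above the filter. Sox1, a transcription factor of early neural plate, read 8.14 and 7.05 in the uninduced and 7.35 and 5.98 in the treated arrays, but a second Sox1 probe set differed by 0.21. In contrast the neural genes Nes, Pax6, Map2 and Msi1 differed by 0.30, 0.12, 0.14 and 0.35. The limma line test called Gap43 and Sox1.

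Pluripotency genes differed mostly by small amounts between the lines. Of 30 core and naive pluripotency genes, 0 were past 2-fold higher and 1 past 2-fold lower, with a median of 0.02. The limma line test called 0 of them at the adjusted p of 0.05. At an unadjusted p of 0.05 it had 9 higher and 2 lower, beside 15.2% and 13.1% of all genes. With the level-dependent prior it called 10 higher and 3 lower, beside 12.8% and 11.5% of all genes. Pou5f1, Sox2 and Esrrb differed by 0.0038, 0.03 and 0.05 in the uninduced pair, and Nanog by -0.54 and -0.36 in the uninduced and treated pair. The gene past 2-fold was Tbx3, a T-box factor of the naive state, at 11.01 and 9.94 in the uninduced arrays but 10.62 and 10.66 in the treated ones. Both bright Tbx3 probe sets gave this pattern, with -1.07 and -1.07 in the uninduced pair. Genes of the formative and primed epiblast included Zic2 and Zic5, zinc finger neighbours, which differed by -1.65 and -1.36 in the uninduced and by -1.11 and -2.23 in the treated pair. Both genes were also lower after doxycycline in each line. The epiblast factors Pou3f1 and Otx2 differed by -0.65 and -0.45, and Dnmt3b, a DNA methyltransferase, by 0.67.

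Detoxification genes differed in both directions between the lines. Of 25 glutathione and Nrf2 pathway genes, 3 were past 2-fold higher and 2 past 2-fold lower, with a median of 0.24. Cbr3, a carbonyl reductase, read 10.87 and 12.51 in the uninduced and 10.40 and 11.84 in the treated arrays. Abcc4, an efflux pump, read 10.26 and 11.76 in the uninduced and 10.12 and 11.52 in the treated arrays. Gpx2, a glutathione peroxidase, read 8.72 and 9.84 in the uninduced and 8.42 and 9.74 in the treated arrays. These 3 genes were called higher by the limma line test. The Nrf2 targets Txnrd1, Srxn1, Nqo1 and Gclm differed by 0.70, 0.65, 0.62 and 0.58 in the uninduced and by 0.58, 0.57, 0.61 and 0.71 in the treated pair, and Nfe2l2, the gene of Nrf2, by 0.24 and 0.41.

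Gstp1, Gstp3 and Gsta3, which encode glutathione transferases, read lower in the Hey2 line. Gstp1 read 13.50 and 11.95 in the uninduced and 13.45 and 11.90 in the treated arrays, with a line difference in limma of -1.55 ± 0.08 (SE, adjusted p = 0.0439). Its neighbour Gstp3 read 7.64 and 5.92 in the uninduced and 7.53 and 6.39 in the treated arrays. The pi-class genes lie side by side and are similar in sequence, so a probe set of one may read another and the 2 values may not be separate measurements. Gsta3 read 9.13 and 7.10 in the uninduced arrays but 8.89 and 8.48 in the treated arrays, so most of its difference was absent under doxycycline. Gsta4, of the same class as Gsta3, differed by 0.10, and Gstm1 and Gstm2, of the mu class, by 0.36 and 0.88.

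Germ cell genes tended to read lower in the Hey2 line. Of 25 germ cell and meiosis genes compared, 0 were past 2-fold higher and 6 past 2-fold lower, 5 lay above 0, and the median was -0.35 in the uninduced and -0.38 in the treated pair. Stk31, a testis kinase gene, read 7.41 and 5.74 in the uninduced and 7.84 and 7.23 in the treated arrays. Slc25a31, the germ cell ADP/ATP carrier, read 7.38 and 6.27 in the uninduced and 8.56 and 7.34 in the treated arrays, and was called by the limma line test. The meiotic genes Hormad1, Meioc and Tex11 differed by -1.29, -1.23 and -1.18, and by -0.74, -0.44 and -0.40 in the treated pair. Cyct, the testis cytochrome c gene, differed by -1.14 and -0.91, and the RNA-binding protein gene Dazl by -0.87 and -0.78. Doxycycline treatment went with higher values of Stk31, Slc25a31 and Meioc in both lines. At an unadjusted p of 0.05 the limma line test had 0 of the 25 higher and 14 lower, beside 15.2% and 13.1% of all genes.

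Genes of the two-cell-like state were lower in the Hey2 line, by an amount that depended on the arrays compared. Of 9 compared, 4 were at least 2-fold lower in the uninduced pair and 9 of 9 lay below 0, with a median of -0.70. In the treated pair 8 were at least 2-fold lower, with a median of -4.13. The level filter took the highest of the 4 arrays, and BC080696 and Arg2 passed it through the treated Hey1 array alone. Both were below 6.05 in the 2 uninduced arrays, so the counts and medians of this list rest in part on that choice. Usp17la, a deubiquitinase gene, read 7.51 and 5.36 in the uninduced and 11.37 and 5.88 in the treated arrays. AF067061 read 8.50 and 6.45 in the uninduced and 11.45 and 6.51 in the treated arrays, and BC080696 read 5.73 and 4.08 in the uninduced and 10.65 and 4.18 in the treated arrays. The high array in each case was the treated Hey1 array, and the uninduced Hey1 array was second. Arg2, an arginase gene, read 5.65 and 4.32 in the uninduced and 6.10 and 4.17 in the treated arrays. Usp17la belongs to a family of near-identical copies, so its value may not be that of a single gene.

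Signalling lists gave smaller shifts that the treated pair kept only in part. Of 22 FGF and ERK feedback genes, 2 were past 2-fold higher and 0 past 2-fold lower, 20 lay above 0, and the median was 0.26 in the uninduced and 0.08 in the treated pair. The ligand gene Fgf18 read 5.71 and 6.94 in the uninduced and 5.67 and 5.47 in the treated arrays, with the uninduced Hey2 array alone above the filter. Fgf17 differed by 0.84 and 0.50, and the receptor gene Fgfr2 by 0.84 and 0.14. Among Wnt genes the median was 0.26 in the uninduced and -0.04 in the treated pair. The Wnt antagonist gene Sfrp2 read 6.70 and 7.76 in the uninduced and 6.85 and 7.28 in the treated arrays, and the cyclin gene Ccnd2 differed by -0.81 and -0.79.

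Notch pathway genes, which act upstream of Hey factors, showed 0 members at 2-fold in either direction among 26 compared, with a median of 0.05. The receptor genes Notch3 and Notch4 differed by 0.72 and -0.71, Notch1 and Notch2 by 0.29 and 0.41, and the ligand gene Jag1 by -0.25. Of 14 Hes and Hey repressors and co-repressors, 0 passed 2-fold. Id2, an inhibitor of helix-loop-helix factors, differed by 0.80 in the uninduced and -0.45 in the treated pair, and Heyl by 0.44 and -0.07. Nodal and BMP genes had a median of -0.02, with Skil and Lefty1, feedback inhibitors, at 0.76 and 0.74 in the uninduced and 0.17 and -0.06 in the treated pair. For Id2, Heyl, Skil and Lefty1 the treated difference was thus smaller or of the other sign.

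Of 22 interferon and innate sensing genes, 9 lay above 0, Aim2 was the 1 past 2-fold higher and Oas1a the 1 past 2-fold lower, and the median was -0.17. Oas1a, an antiviral oligoadenylate synthetase, read 9.97 and 8.36 in the uninduced and 9.81 and 8.59 in the treated arrays and was called lower by the limma line test. The RNA sensor gene Ddx58 differed by -0.70 and -0.07, and the interferon response genes Irf9 and Ifit2 by -0.23 and -0.34. Of 24 DNA replication genes, 20 lay below 0 in each pair, with medians of -0.17 and -0.22 and 0 members at 1.5-fold. Of all 12098 genes, 5592 lay below 0 in the uninduced and 6380 in the treated pair. The limma line test called 0 of the 24. At an unadjusted p of 0.05, 1 was higher and 8 lower (15.2% and 13.1% of all genes). With the level-dependent prior 2 were higher and 13 lower (12.8% and 11.5%). The list's lowest member was Rfc3, a clamp loader subunit, at -0.50 and -0.52. Of 27 hypoxia and glycolysis genes, 21 lay below 0 and 3 were at least 1.5-fold lower (4.42% of all genes), Ankrd37, Pfkp and P4ha1. Among 21 p53 targets, Zmat3 was higher by 0.93 in both pairs and was called by the limma line test, while Cdkn1a differed by -0.16 and Mdm2 by 0.19.

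**Figure D5:**
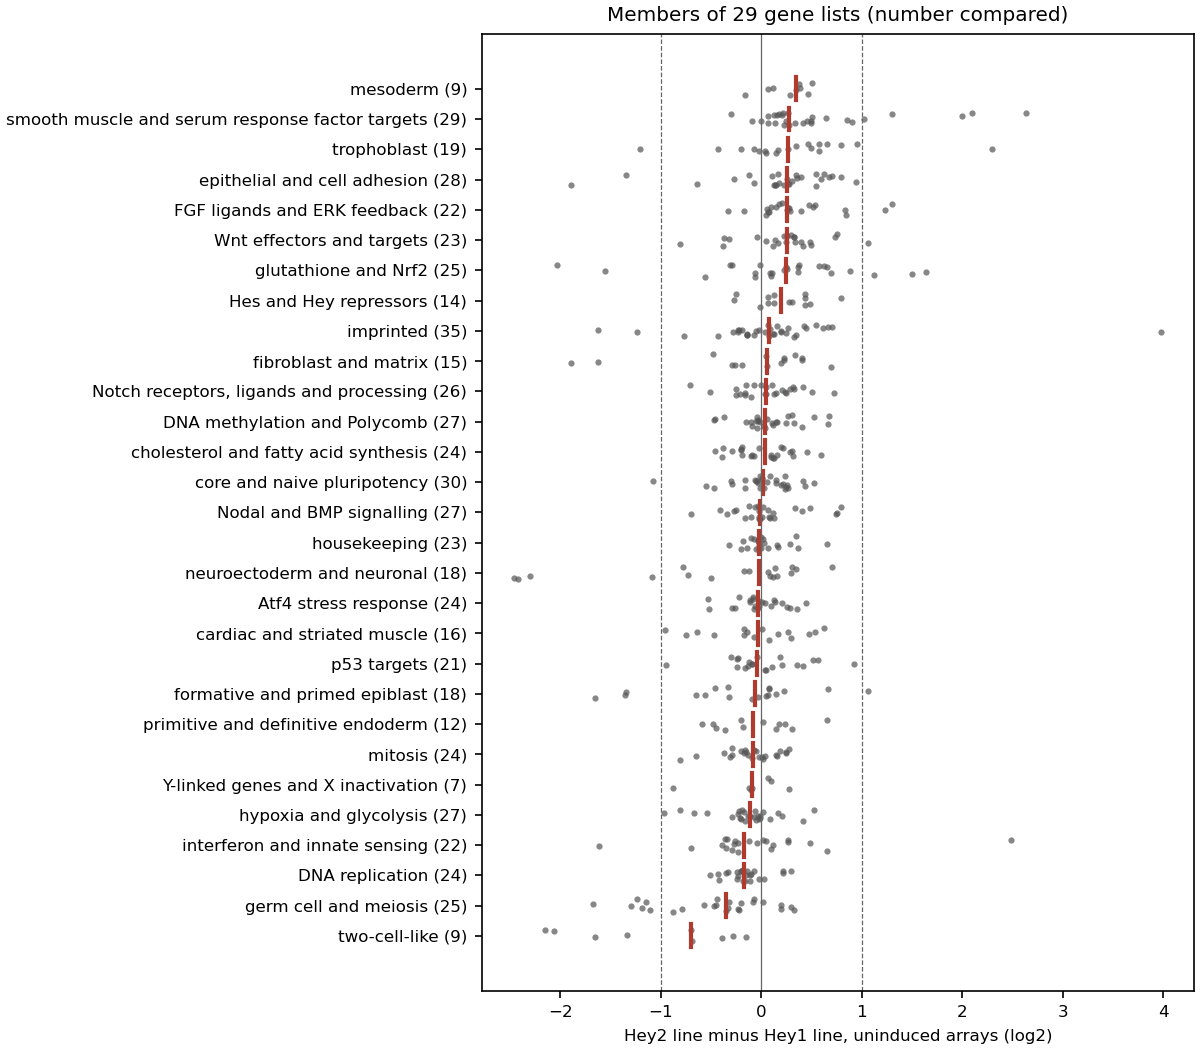
Each grey point is a compared gene of 1 of 29 gene lists, placed by its Hey2 minus Hey1 difference (log2) in the uninduced arrays, 1 array a side, and red bars are list medians. Numbers of compared genes stand in brackets, and dashed lines mark 2-fold. Most list medians lie near 0, the two-cell-like list is lowest at -0.70 and the germ cell list next at -0.35.

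Genes past 2-fold stood next to each other in the order of compared genes in 14 places, 11 with both genes in the same direction and 3 in opposite directions. How many places a random order would give was not worked out, so the count is no measure of clustering. It includes the places among Ddc, Grb10 and the transcripts within them. Besides the pair Grb10 and LOC102631979, one other same-direction pair was higher, Tmem144 and Gask1b, at 1.04 and 1.25 in the uninduced and 0.64 and 1.00 in the treated pair. The lower pairs included Vim and St8sia6, a sialyltransferase gene, at -1.89 and -2.58, and Xaf1 and Tekt1 at -1.41 and -1.34. Gna14 and Vps13a ran in opposite directions, at 1.01 and -1.34, as did Frmd4b and the pigment cell factor Mitf, at 1.05 and -1.37. Chromosome by chromosome the median shifts were small. The median difference of the 20 chromosomes with at least 100 genes compared lay between -0.07 for the X chromosome and 0.09 for chromosome 15. Of 379 genes of the X chromosome, 12 were past 2-fold lower and 5 past 2-fold higher, where 1.13% and 0.827% of all genes were.

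Different probe sets of a gene usually gave the same direction. Of the 100 higher genes, 40 had several probe sets above the filter, which had the same sign in 40 and were all 2-fold in 14. Of the 137 lower genes, 39 had several, with the same sign in 34 and all 2-fold in 11. The 5 lower genes with a probe set of opposite sign were Nfib, Sccpdh, Ak4, Sox1 and Il6ra. Averaging all probe sets of a gene, dim ones included, brought some large differences down by over 1.5 times. On that measure Grb10 differed by 2.31, Acta2 by 0.61, Krt17 by 0.87, Kbtbd11 by 0.74, Rnf157 by 0.76 and Frmd4b by 0.52. Among lower genes it gave -1.66 for St8sia6, -1.04 for Ptgs2, -0.91 for Xaf1, -0.85 for Vps13a, -0.75 for Plagl1, -0.65 for Cntnap2, -0.59 for Tbx3, -0.58 for Ddc, -0.44 for Sox1 and -0.41 for Trpm1. An offset of 32 on the linear scale, which damps dim signals, did so for genes that included Nefm (-1.14) and Ptgs2 (-1.09). Also among them were BC080696 (-0.80), Arg2 (-0.67), Tex11 (-0.65), AU041133 (-0.75) and Nckap5 (0.45).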

How the data were processed

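Total RNA from 4 samples was hybridised to Affymetrix arrays, and the authors deposited log2 probe set values made with RMA, per the submitters' processing notes, which give no version. RMA corrects background, normalises arrays by quantiles and summarises probes. The chip description file or genome build was not given in the sources used here. Deposited values from 2.67 to 15.2 fit a log2 scale. Gene symbols came from the platform annotation, and 34754 single-symbol probe sets matched RefSeq genes (GRCm38.p6), which gave gene order. Differences are Hey2 minus Hey1 with no further normalization. The line test used limma 3.58.1 in R 4.3.3 (lmFit, eBayes, Benjamini-Hochberg over 12098 genes). It was also run on simulated data that gave every gene the same spread, which cannot check how the calls depend on the prior variance. Other steps used Python 3.11.15, numpy 2.4.6, pandas 2.3.3 and matplotlib 3.10.9.

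Named were Hey1 and Hey2, the 20 genes per direction with the largest uninduced difference (without predicted genes and clone names), the 8 past 2-fold per direction that moved most between pairs, per list the 4 members with the largest difference and any past 2-fold, and adjacent genes past 2-fold. Genes past 2-fold with the opposite sign in the treated pair were named as well. Other list members, promoter matches and members of counts of 5 or fewer were named after their values were seen. The comparison, its members and the 29 lists were chosen with earlier results of these data known. Alternatives were the level filter, the probe set rule, cyclic loess, an offset of 32, the treated pair and other limma fits.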

Additional observations from a re-analysis of the deposited data

Results flagged for a closer look

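For 9 genes past 2-fold in the uninduced pair, the difference between the lines had the opposite sign in the doxycycline-treated pair. With 1 array a group the change between pairs was not tested. Of the genes higher in the uninduced Hey2 line, Egr1 differed by -0.23 in the treated pair, the growth factor gene Fgf18 by -0.20, the sphingomyelin synthase gene Sgms2 by -0.12 and the lysosomal transporter gene Slc46a3 by -0.17. For Fgf18, Sgms2 and Slc46a3 the uninduced Hey2 array was the high one, at 6.94, 7.78 and 6.28, and the other 3 arrays of each lay within a narrow band. Of the genes lower in the uninduced Hey2 line, Tbx3 differed by 0.034 in the treated pair, the DNA repair gene Brca2 by 0.098, the actin-binding protein gene Ccdc88a by 0.20, 2210409E12Rik by 0.095 and AU041133 by 0.20. In Brca2 the uninduced Hey2 array read 9.59 and the others 10.65, 10.65 and 10.75, and in Ccdc88a it read 6.47 and the others between 7.52 and 8.02.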

How the results depend on the processing

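The 100 higher and 137 lower genes became 103 and 151 with no level filter, 99 and 132 with the filter on the uninduced arrays, and 97 and 146 after cyclic loess. A filter at the 75th percentile left 63 and 61, averaging the probe sets of a gene 63 and 97, an offset of 32 on the linear scale 61 and 78, and every probe set on its own gave 158 and 260. The limma line test, with 65 and 46 calls, gave 1543 and 1390 with a level-dependent robust prior, 1066 and 798 with the stricter filter, 2 and 3 without the doxycycline covariate, and between 0 and 32 higher and between 0 and 39 lower when an array was left out. Fits on 3 arrays dropped the covariate, and the lone array was assumed to vary like the others. Of 90 named genes past 2-fold, 90 stayed so after cyclic loess, 65 with the mean of probe sets, 68 with the offset and 58 in the treated pair, where Egr1 (-0.23), Fgf18 (-0.20), Sgms2 (-0.12), Slc46a3 (-0.17), 2210409E12Rik (0.095), AU041133 (0.20), Brca2 (0.098), Ccdc88a (0.20) and Tbx3 (0.034) had the opposite sign; the cause was not tested. The 90 include every gene of opposite sign in the treated pair and the genes named for moving most between the pairs. The count for the treated pair is thus set in part by that choice. The number of arrays limits the precision, and genes near 6.05 have little signal over background.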

Other observations

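Probe sets without a single gene symbol were counted as well. Of 21097 single-symbol probe sets above the filter, 158 were past 2-fold higher in the uninduced Hey2 line and 260 past 2-fold lower. Of 2427 probe sets above the filter that the annotation leaves without a symbol, 10 were past 2-fold higher in the Hey2 line and 47 past 2-fold lower. Beside the single-symbol probe sets, the share past 2-fold higher was thus smaller and the share past 2-fold lower larger. Of 592 with several symbols, 1 was higher and 11 were lower. These were not assigned to genes.

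Hspa1a, an inducible heat shock protein gene, read 6.64 and 5.48 in the uninduced and 9.08 and 6.30 in the treated arrays, so the treated Hey1 array stood above the other 3. Nckap5 ran the other way, at 3.99 and 5.05 in the uninduced and 3.70 and 6.12 in the treated arrays, with the treated Hey2 array as the one above the filter. Zfp182, a zinc finger gene of the X chromosome, read 6.72 and 5.27 in the uninduced and 6.83 and 6.76 in the treated arrays, so the uninduced Hey2 array stood apart. Fgf1 was not 2-fold apart in the uninduced pair (5.42 and 5.95) but read 7.32 and 4.73 in the treated arrays. The cardiac light chain genes Myl2 and Myl7 differed by -0.95 and -0.74 in the uninduced and by -1.52 and -1.20 in the treated pair, opposite in sign to Acta2, Tagln and Myl9. The cardiac and striated muscle list as a whole did not follow them. In the uninduced pair 8 of its 16 compared genes lay above 0, 1 was past 1.5-fold higher and 3 lower. The median was -0.03, and Ckm was higher by 0.63.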
